A study of Mus musculus with 21 samples.

Results

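Genes of renal drug and urate handling were followed by symbol through all libraries: the organic anion transporters Slc22a6 (OAT1) and Slc22a8 (OAT3), the urate transporter Slc22a12 (URAT1), the organic cation transporters Slc22a2 (OCT2) and Slc47a1 (MATE1), and the ATP-driven exporters Abcc2 (MRP2), Abcc4 (MRP4) and Abcg2 (BCRP). They were 8 of 54123 annotated genes, and all 8 entered every test. RNA-Seq was performed on polymorphonuclear neutrophils (PMNs) and kidney tubular epithelial cells (TECs) of wildtype mice, which the study's methods describe as male C57BL/6 animals. Cells were isolated 24 hours after sham surgery or renal ischemia-reperfusion injury (IRI, clamping of both renal pedicles). Mice had received either remote ischemic preconditioning (RIPC, repeated inflation of a cuff on a hind limb, before clamping in IRI mice) or a control procedure (control). For control mice, the study describes a cuff inflated at a low pressure that caused no limb ischemia. There were 3 TEC libraries each of sham control, sham RIPC and IRI RIPC and 2 of IRI control, and 3 PMN libraries each of sham RIPC and IRI RIPC and 2 each of sham control and IRI control. All groups were wildtype, and no transgene or knockout was involved.

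These proteins carry drugs, toxins, urate and metabolic waste across the proximal tubule cell. OAT1, OAT3 and OCT2 sit in the basolateral membrane and take organic anions and cations up from the blood, whereas MATE1, MRP2, MRP4 and BCRP release them into the urine across the apical membrane. URAT1 acts in the other direction and reabsorbs urate from the tubular fluid. Hepatocyte nuclear factor HNF4A is known to drive several of these genes in the tubule, and neutrophils are not known for OAT, OCT or URAT function.

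The 8 genes lay on 5 chromosomes of GRCm38 (Gencode M21), 4 of them on chromosome 19. Slc22a8 (chr19:8591254-8611835, plus strand) and Slc22a6 (chr19:8618039-8628299, plus strand) were neighbours, Slc22a12 lay at chr19:6535845-6543032 (minus strand) and Abcc2 at chr19:43782192-43840740 (plus strand). Slc22a2 lay at chr17:12584132-12628488 (plus strand), Slc47a1 at chr11:61343401-61378345 (minus strand), Abcc4 at chr14:118482692-118706219 (minus strand) and Abcg2 at chr6:58584523-58695676 (plus strand). No stretch of 50 bases, the read length, was shared between members. Slc22a2 shared 101 of its 2434 transcript stretches of that length (4.15%) with other genes, and 682 of the 2263 exonic bases of Slc22a12 overlapped exons of Nrxn2 on the other strand, which had 92.9 to 404 reads in sham TECs. The counts of these 2 genes are to that extent uncertain.

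RefSeq promoter windows of 300 bases (GRCm38.p6, 250 before and 50 after a start site) were matched for 7 of the 8 genes; Slc47a1 was not matched. The HNF4 site CAAAGTCCA, searched on both strands, occurred in 0.475% of all 32851 windows and in none of the 10 windows of the members. TATAAA, searched in the same way, occurred in 13.6% of all windows and in 2 of the 3 windows of Abcg2. A match of letters describes the sequence and is not evidence of binding. The 150 bases before the start are printed 5′ to 3′ for Slc22a6 and Slc22a12, the members with the smallest adjusted p after IRI, and for the Abcg2 start that carried most of its reads. These stretches hold neither motif and are in lower case throughout.
Slc22a6, chr19:8617846-8617995, plus strand: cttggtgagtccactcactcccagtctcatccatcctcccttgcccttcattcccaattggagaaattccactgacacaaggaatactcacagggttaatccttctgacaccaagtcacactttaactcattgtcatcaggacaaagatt
Slc22a12, chr19:6543071-6543220, minus strand: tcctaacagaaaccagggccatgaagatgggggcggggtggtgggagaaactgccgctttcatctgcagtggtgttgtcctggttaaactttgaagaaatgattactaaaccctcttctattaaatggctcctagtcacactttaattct
Abcg2, chr6:58640396-58640545, plus strand: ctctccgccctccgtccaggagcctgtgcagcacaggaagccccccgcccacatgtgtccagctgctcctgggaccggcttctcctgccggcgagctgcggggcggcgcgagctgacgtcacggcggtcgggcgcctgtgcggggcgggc

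The libraries held 21479605 to 51624602 estimated reads in TECs and 20881334 to 30507235 in PMNs, added over all quantified transcripts and both files of a library. In TECs, the summed level of 12 proximal tubule markers was 11516 to 20418 normalized counts after sham surgery, and that of 10 neutrophil markers was 1.62 to 89.3 over all 11 libraries. Normalized counts are CPM values after TMM scaling over all 21 libraries. Their library sizes were summed over autosomal genes, for example 28357100 of 35768240 reads in TEC sham control 1. The PMN libraries held neutrophil markers at 6042 to 32261, but also macrophage markers at 807 to 9330 and proximal tubule markers at 326 to 4585, with none of the 12 tubule markers at 0 in all of them. The label gives blood as their tissue. PMN sham control 2 had the highest summed level of proximal tubule markers among PMNs. Of the tubular injury markers, TEC sham control 1 had a summed level of 145, against 0.748 to 14.4 in the other 5 sham TEC libraries.

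In sham TECs, all 8 transporters were detected in all 6 libraries, at very different levels. Per transcript length, URAT1 and BCRP led and the MRP exporters were lowest. Slc22a12 reached 141 ± 12.2 TPM (a length-normalized abundance; mean ± SD, n = 6) and Abcg2 141 ± 42.5, followed by Slc47a1 with 90.0 ± 35.6, Slc22a8 with 67.0 ± 10.6 and Slc22a6 with 60.4 ± 30.7. Slc22a2 had 38.0 ± 15.8 TPM, Abcc2 8.76 ± 3.02 and Abcc4 2.29 ± 2.32. Abcg2 exceeded Slc47a1, Slc22a6 exceeded Slc22a2, and Slc22a2 exceeded Abcc2 in 6 of 6 libraries (exact paired permutation test, two-sided p = 0.03125, the smallest that 6 libraries allow, adjusted p = 0.0729 over 7 neighbouring pairs). No neighbouring pair passed after this adjustment. The pairs and their direction were set by the mean TPM of these same libraries, so that these p-values do not test an order fixed beforehand. Abcc2 exceeded Abcc4 in 5 of 6 libraries (exact p = 0.0625), Slc47a1 exceeded Slc22a8 in 5, Slc22a8 exceeded Slc22a6 in 4 and Slc22a12 exceeded Abcg2 in 2. Abcc4 was uneven, from 17 reads in sham control 2 to 1641 in sham control 1.

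**Figure D1:**
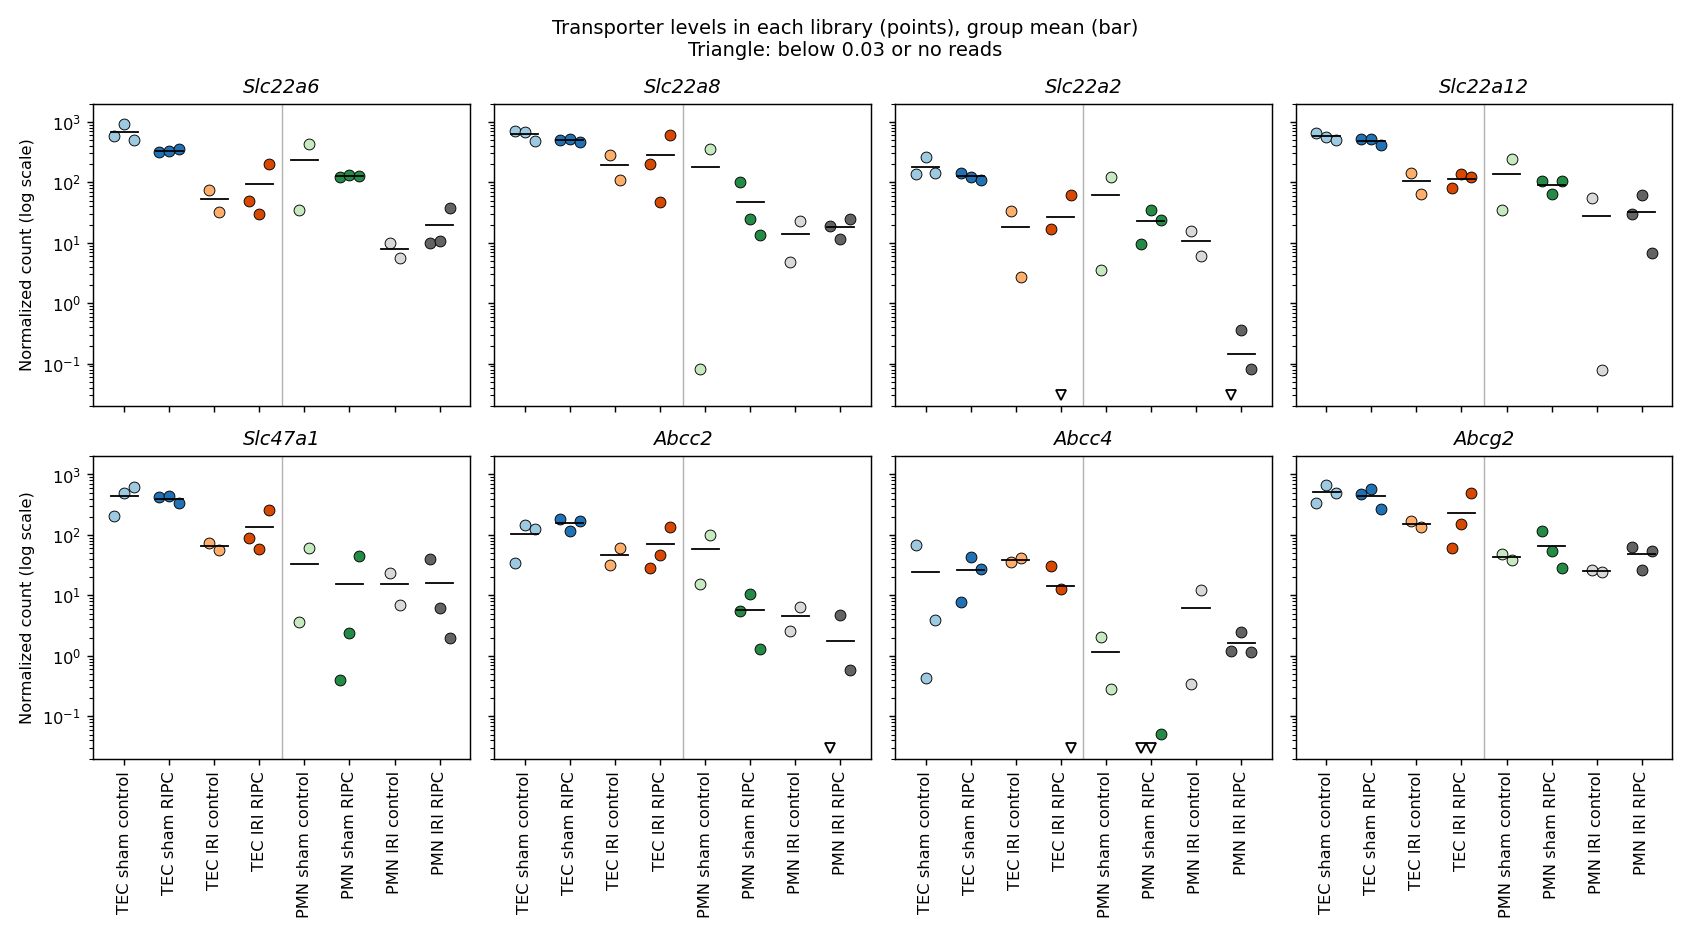
Normalized counts (log axis) of the 8 transporters in each of the 21 libraries, by group. Points are libraries, bars are group means, and open triangles mark libraries with no reads. In TECs, the points of Slc22a6, Slc22a2 and Slc22a12 after IRI lie below all sham points.

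The first comparison asked how the transporters stood in TECs 24 hours after IRI. All 8 had a fitted level below that of sham TECs, except that Abcc4 turned to 0.0386 on the log2 scale with DESeq2 size factors, and Slc22a6, Slc22a12 and Slc47a1 fell (edgeR quasi-likelihood test, Benjamini-Hochberg adjusted p over 25917 genes). Among all tested genes, 1.15% were called lower. The median log2 fold change of the 8 members was -1.78 against 0.15 over all tested genes. The remaining 5 did not pass. A smaller share of proximal tubule cells in a library and less transporter RNA per cell cannot be told apart in bulk RNA.

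Among the basolateral anion uptake carriers, Slc22a6 ranged from 316 to 933 normalized counts with a median of 435 in the 6 sham libraries. After IRI, it had 74.1 and 32.0 in the control libraries and 49.3, 30.2 and 199 in the RIPC libraries. The groups did not overlap, and the mean after IRI was 15.3% of the sham mean (log2 fold change -2.80, SE 0.51, edgeR adjusted p = 0.0174). Slc22a8, its neighbour on the chromosome, ranged from 469 to 696 with a median of 520 after sham surgery, and had 281 and 111 in IRI control and 202, 46.7 and 609 in IRI RIPC. Here 4 of 5 IRI libraries lay below all sham libraries, and IRI RIPC 3 lay within the sham range (log2 fold change -1.29, SE 0.51, edgeR adjusted p = 0.266).

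Slc22a12, which reabsorbs urate, had 419 to 655 normalized counts with a median of 512 after sham surgery, and 143 and 63.9 in IRI control and 80.9, 139 and 121 in IRI RIPC. All IRI libraries lay below all sham libraries. Its mean after IRI was 20.7% of the sham mean (log2 fold change -2.31, SE 0.35, edgeR adjusted p = 0.00692).

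Of the cation carriers, Slc47a1, which exchanges cations for protons at the apical membrane, had 209 to 625 normalized counts with a median of 427 after sham surgery. It had 73.8 and 56.5 in IRI control and 88.3, 59.0 and 263 in IRI RIPC (log2 fold change -2.19, SE 0.46, edgeR adjusted p = 0.0318). The groups met only in IRI RIPC 3, which exceeded sham control 1. Slc22a2, the basolateral uptake step, had 110 to 264 with a median of 141 after sham surgery, and 33.7 and 2.70 in IRI control and 17.0, 0 and 62.0 in IRI RIPC. The groups did not overlap, but the IRI libraries differed widely and the difference was not called (log2 fold change -2.85, SE 1.10, edgeR adjusted p = 0.252). Groups without overlap in this direction were found for 3.16% of all tested genes. The library with no Slc22a2 reads allows a level of up to 0.127 normalized counts (3 reads), by counting error alone. This limit takes the reads of both files as separate counts and is too low if they are not.

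None of the ABC exporters passed. Abcg2, which exports urate and many drugs, had 266 to 681 normalized counts with a median of 488 after sham surgery, and 171 and 135 in IRI control and 61.1, 150 and 493 in IRI RIPC (log2 fold change -1.36, SE 0.49, edgeR adjusted p = 0.224). Abcc2, an apical exporter of conjugated anions, had 34.5 to 187 with a median of 137 and then 32.2 and 61.2 in IRI control and 28.4, 45.8 and 136 in IRI RIPC (log2 fold change -1.19, SE 0.53, edgeR adjusted p = 0.311). For both genes the groups overlapped. Abcc4, which exports cyclic nucleotides and anions, had 0.424 to 67.8 with a median of 17.7 after sham surgery, and 35.7, 42.1, 30.3 and 12.7 in 4 IRI libraries and no reads in IRI RIPC 3. Its means after both surgeries were close (log2 fold change -0.11, SE 1.24, edgeR adjusted p = 1.00), with an error that spans changes of more than 2-fold in either direction.

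**Figure D2:**
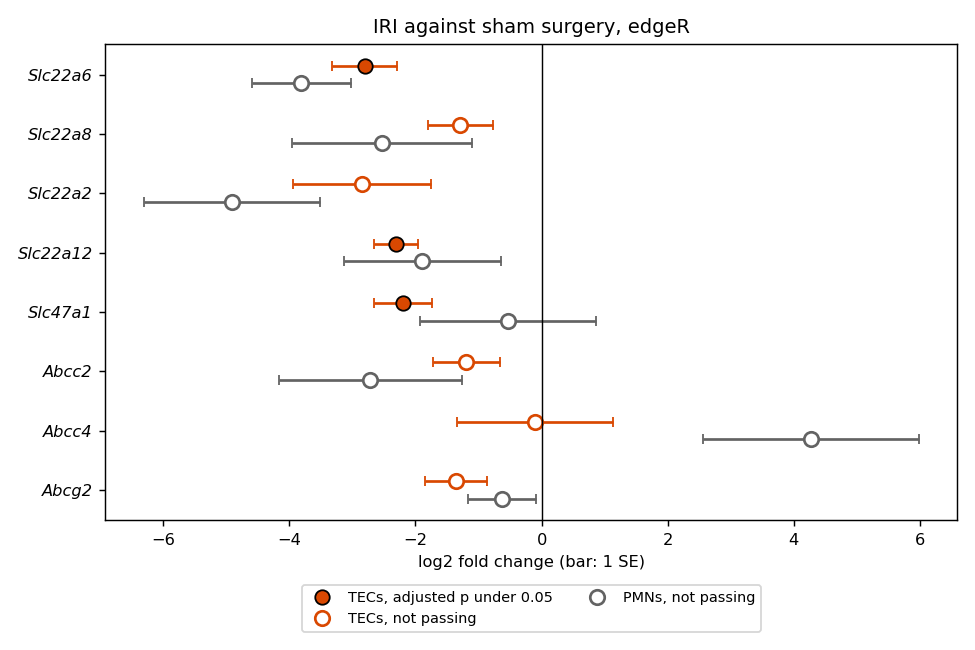
Log2 fold change of IRI against sham surgery for each transporter in TECs and PMNs, with bars of 1 SE from edgeR; filled points have an adjusted p under 0.05. Filled points are Slc22a6, Slc22a12 and Slc47a1 in TECs, and the PMN bar is the wider one for each of the 8 genes.

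Some of these calls rested on single libraries. Without sham control 2, 1 of 8 members was called, with adjusted p = 0.0675 for Slc22a6 and 0.0908 for Slc47a1. Of the 11 fits that left out 1 library, Slc22a12 was called in 11 (highest adjusted p 0.0263), Slc22a6 in 10 and Slc47a1 in 4. Without IRI RIPC 3, the library with the highest proximal tubule level after IRI, Slc22a8 (log2 fold change -1.88, edgeR adjusted p = 0.0340) and Abcg2 (-1.90, adjusted p = 0.0274) passed too, and 5 of 8 were called. Within the control arm alone (3 sham and 2 IRI libraries) and the RIPC arm alone (3 and 3), none of the 8 was called, with log2 fold changes of -3.73 and -1.87 for Slc22a6, -2.53 and -2.09 for Slc22a12 and -2.82 and -1.57 for Slc47a1. In the 5 sham and 4 IRI libraries left when TEC sham control 1 and IRI RIPC 3 were both omitted, 5 of 8 were called. These 2 libraries were chosen after the data were seen. The shares of all genes called in the fits with libraries left out are not given here, so that these counts cannot be set against them.

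The related genes were described by lists. Of the 17 other SLC22 family members tested in TECs, none passed after IRI, and 14 had a log2 fold change below 0. Slc22a18, among the most abundant of them, had a median of 385 normalized counts after sham surgery and 108 after IRI (edgeR adjusted p = 0.206). Of 23 other organic ion and urate carriers tested, 4 fell and none rose. Slc13a3, the dicarboxylate carrier that supplies the gradient used by OAT1 and OAT3, had a median of 292 normalized counts after sham surgery and 12.8 after IRI (log2 fold change -3.72, SE 0.70, edgeR adjusted p = 0.0197). Slc51a, a subunit of the organic solute transporter, had medians of 163 and 10.2 (edgeR adjusted p = 0.0252), and Slc16a9, a monocarboxylate transporter family member, 47.7 and 0 (edgeR adjusted p = 0.0289). None of the 8 other ABC exporters passed. The most abundant, Abcc1 and Abcc5, had 0.648 to 28.8 and 6.70 to 34.8 normalized counts after sham surgery and 26.2 to 54.3 and 4.89 to 70.6 after IRI.

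Among 12 scaffold proteins and transcription factors of these transporters, 2 fell after IRI. Pdzk1, which anchors URAT1 and other apical carriers, had a median of 1869 normalized counts after sham surgery and 81.8 after IRI (log2 fold change -3.53, SE 0.66, edgeR adjusted p = 0.0186). Pdzk1ip1, its membrane partner, had medians of 740 and 167 (log2 fold change -2.10, SE 0.42, edgeR adjusted p = 0.0252). The other 10 did not pass. The transcription factor Hnf4a had medians of 158 and 40.5 (edgeR adjusted p = 0.101).

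Proximal tubule markers moved with the transporters. All 12 had a log2 fold change below 0 after IRI, 6 of 12 fell, and the median was -2.37, compared with -1.78 for the transporters. Their sum was 1501 to 8857 normalized counts after IRI against 11516 to 20418 after sham surgery, and IRI RIPC 3 held the highest value after IRI. The tubular injury markers summed to 1134 to 1923 after IRI against 0.748 to 145. Distal tubule and collecting duct markers had 8 of 9 log2 fold changes below 0 (median -2.59), with sums of 95.4 to 609 after IRI and 199 to 1185 after sham surgery. All 5 tested neutrophil markers of 10 (median 4.81) and all 5 endothelium markers (median 2.40) were above 0, at sums of at most 89.3 and 269, and no marker of these 3 lists was called. Expressed against the marker sum, the members summed to 21.3% to 32.2% after IRI and to 13.0% to 23.6% after sham surgery. Slc22a6 was 1.36% to 2.57% of the marker sum after IRI and 1.59% to 4.99% after sham surgery, whereas Abcg2 was 2.62% to 10.0% and 2.26% to 3.40%. On this scale, Slc22a6 had 1 of 5 IRI libraries below all sham libraries and Slc22a2 had 2, with none above. Slc22a12 had 1 below and 1 above. Abcg2 and Abcc4 had 4 each above all sham libraries, Slc22a8 and Abcc2 3 each and Slc47a1 2, with none below. The part of these marker levels in the transporter counts was not tested.

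**Figure D3:**
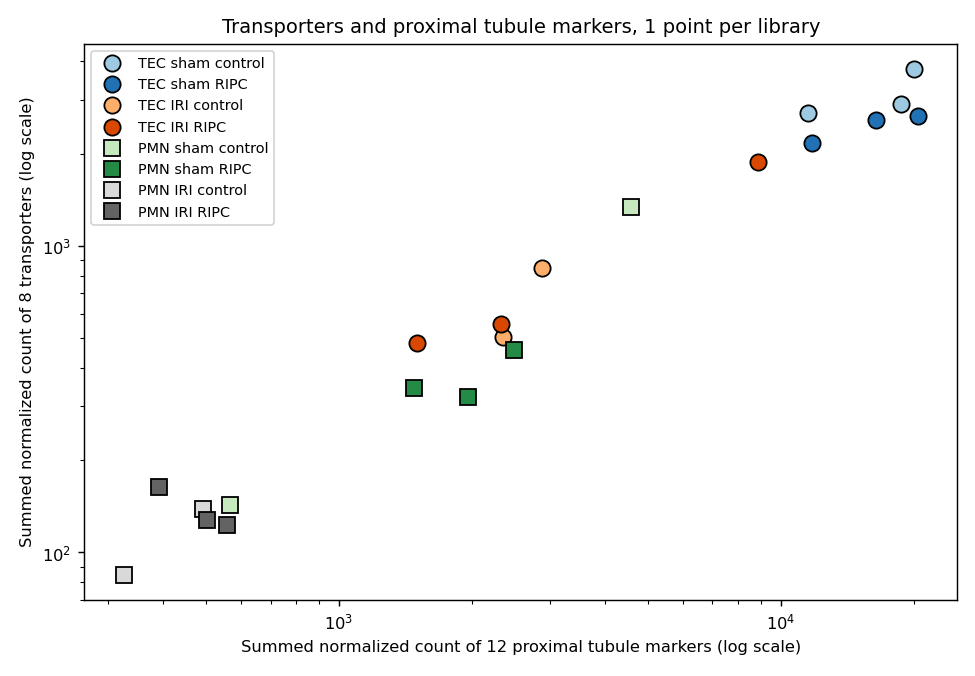
Summed normalized count of the 8 transporters against that of the 12 proximal tubule markers (both log axes), 1 point per library. Sham TECs lie between 2164 and 3767 on the transporter axis, IRI TECs between 483 and 1882, and PMN libraries between 84.6 and 1343, with PMN sham control 2 the highest PMN library on both axes.

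RIPC was next compared with control within each surgery. In sham TECs, none of the 8 members passed, and none of the 25917 tested genes did either (edgeR; 1175 genes, 4.53%, had an unadjusted p under 0.05). DESeq2's Wald test called 425 genes and none of the members. Slc22a6 was the only member without overlap: the RIPC libraries had 316, 324 and 362 normalized counts and the control libraries 575, 933 and 509, so that the RIPC mean was 49.7% of the control mean. This difference was not called (log2 fold change -1.05, SE 0.62, edgeR adjusted p = 0.711). Groups without overlap in this direction were found for 2.52% of all tested genes. The other log2 fold changes were -0.33 for Slc22a8, -0.58 for Slc22a2, -0.28 for Slc22a12, -0.18 for Slc47a1, 0.59 for Abcc2, 0.11 for Abcc4 and -0.24 for Abcg2, each with edgeR adjusted p = 1.

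After IRI, none of the 8 members passed either (1 of 25917 genes, 0.00386%, was called by edgeR, and 1128 had an unadjusted p under 0.05). DESeq2's Wald test called 699 genes and none of the members. The fitted values of 7 members were above 0 with RIPC: 0.81 for Slc22a6, 0.55 for Slc22a8, 0.54 for Slc22a2, 0.16 for Slc22a12, 1.07 for Slc47a1, 0.59 for Abcc2 and 0.63 for Abcg2, on the log2 scale. IRI RIPC 3 had the highest level after IRI of 6 of the 8 members. Without this library, the values of Slc22a6, Slc22a8, Slc22a2, Abcc2 and Abcg2 turned to -0.37, -0.64, -1.10, -0.26 and -0.45, and those of Slc22a12 and Slc47a1 were 0.17 and 0.22. Abcc4 was lower in all RIPC libraries than in the control libraries (log2 fold change -1.43, SE 1.82, edgeR adjusted p = 1), as were 8.89% of all tested genes. The test of whether the IRI effect differed with RIPC called none of the 8 members and no gene of 25917 with edgeR (1869 had an unadjusted p under 0.05), and 597 genes but no member with DESeq2's Wald test.

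**Figure D4:**
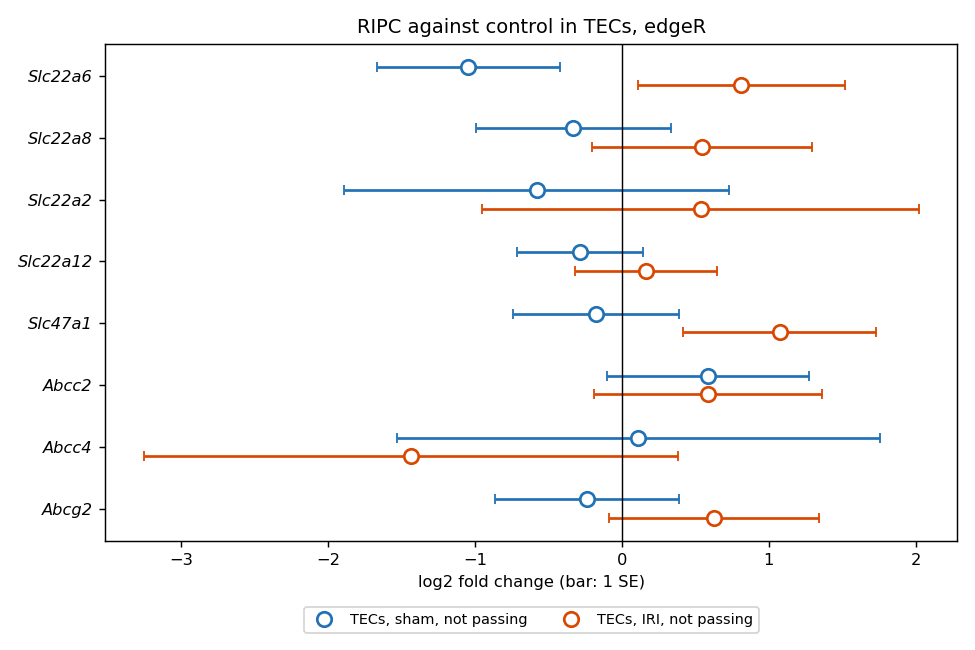
Log2 fold change of RIPC against control in TECs after sham surgery and after IRI, with bars of 1 SE from edgeR. All points are open, since no adjusted p was under 0.05; after IRI 7 of 8 points lie above 0, and after sham surgery 2 of 8.

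All 8 transporters also had reads in PMN libraries, at lower levels. Over all groups, 7 of 8 were higher in TECs than in PMNs, where 3.95% of 31769 tested genes were called higher (edgeR). The log2 differences were 2.79 for Abcg2 (SE 0.42, edgeR adjusted p = 1.73e-04), 3.57 for Abcc2, 3.41 for Slc47a1, 3.25 for Slc22a8, 1.99 for Slc22a6, 5.09 for Abcc4 and 3.06 for Slc22a2 (edgeR adjusted p 0.00468, 0.00722, 0.0112, 0.00965, 0.0114 and 0.0428). Slc22a12 was 2.04 higher and did not pass (SE 0.62, edgeR adjusted p = 0.0544). Slc22a2 was called in 6 of the 21 fits that left out 1 library, and Slc22a12 in 5. In the sham control groups alone or the IRI control groups alone, no member was called. Within sham surgery, all TEC libraries exceeded all PMN libraries for Slc22a8, Slc22a12, Slc47a1 and Abcg2. The share of all tested genes that did so within sham surgery was not computed, so that this is a description of these genes alone. The difference was smallest for Slc22a6, whose sham TEC mean was 2.99 times the sham PMN mean.

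The PMN libraries themselves were uneven. After sham surgery, Slc22a6 had 35.0 and 427 normalized counts in the control libraries and 122, 131 and 128 in the RIPC libraries. Sham control 2 also had the highest PMN level of Slc22a8 (356), Slc22a2 (121), Slc22a12 (239), Slc47a1 (61.6) and Abcc2 (99.2), but not of Abcg2 or Abcc4. This was the library with the highest proximal tubule markers among PMNs. In sham PMNs, the members summed to 16.4% to 29.3% of the proximal tubule marker sum, compared with 13.0% to 23.6% in sham TECs, and Slc22a6 alone was 4.90% to 9.31% of it against 1.59% to 4.99%, with 4 of 5 PMN libraries above all sham TECs. Slc47a1 lay the other way, at 0.0160% to 3.00% against 1.81% to 3.33%, with 4 of 5 PMN libraries below all sham TECs. Slc22a8 was 0.0143% to 7.77% against 2.54% to 6.05%, with 3 below and 1 above. Neutrophil expression and tubular RNA in these libraries were not separated, and their parts were not tested.

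Related genes differed between the cell types as well. Of 18 other SLC22 members, 5 were higher in TECs, among them Slc22a30 and Slc22a18 (log2 differences 2.54 and 2.97). Of 24 other carriers, 5 were higher, among them the phosphate and urate carriers Slc17a1 (2.66) and Slc17a3 (1.90) and the dicarboxylate carrier Slc13a2 (7.46), and Slco2b1 was lower (-8.35). Abcc6 passed, as 1 of 8 other ABC exporters (5.58). Of the 12 scaffold proteins and transcription factors, 6 were higher, among them Hnf4a (4.99), Pdzk1ip1 (2.02) and Pdzk1 (2.81), and Nfe2l2, a regulator of antioxidant genes, was lower (-1.60). Of the 12 proximal tubule markers, 9 were higher in TECs, with a median of 2.66 over the list, compared with 3.16 over the transporters and 0.02 over all tested genes. The distal tubule and collecting duct markers went the other way. Of these 9, 7 had a log2 difference below 0 and 2 above (median -0.84), and 1 was called lower in TECs.

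Abcg2 differed between the cell types in which annotated start its reads were assigned to. RefSeq lists 3 starts, at positions 58584533, 58596672 and 58640546 of chromosome 6. The transcripts of the downstream start, whose upstream sequence is printed above, took 85.6% to 99.5% of Abcg2 reads in the 11 TEC libraries and 59.3% to 97.1% in the 10 PMN libraries. The mean share was 96.1% ± 3.83 (SD, n = 11) in TECs and 80.2% ± 12.3 (SD, n = 10) in PMNs, a difference of 15.9 percentage points (permutation test over libraries, two-sided p = 2.2e-04, 100000 resamples). The middle start took a median of 1.03% in TECs and 11.6% in PMNs, and the upstream start 0.198% and 5.78%. The comparison was made after these shares were seen, and the shares are the authors' Salmon estimates from short single-end reads. PMN libraries held 556 to 2306 Abcg2 reads and TEC libraries 1587 to 27329, so that the PMN shares are less precise.

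Slc22a8 reads were also assigned differently. The transcript that led in TECs took at least 96.7% of Slc22a8 reads in the 11 TEC libraries (median 99.9%) but 0% to 100% in the 10 PMN libraries, with a median of 17.2%. The PMN counts of Slc22a8 given here therefore come largely from other annotated transcripts in some libraries. This difference was seen in the data and was not tested.

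**Figure D5:**
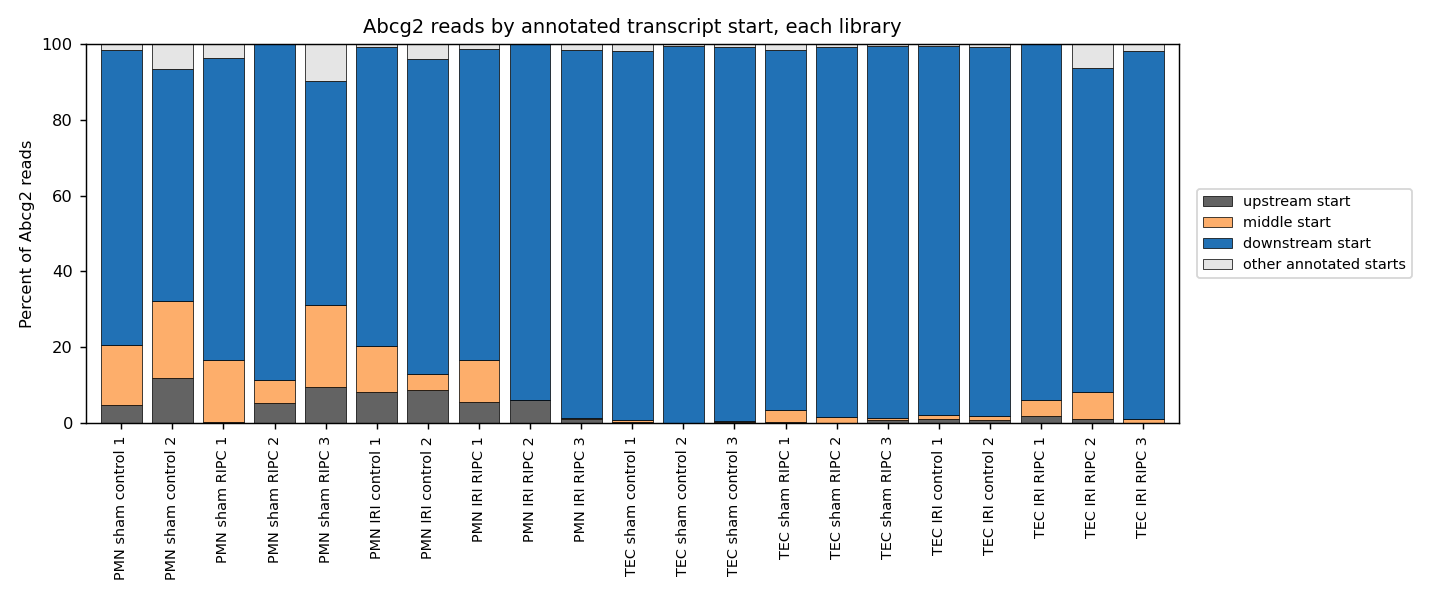
Percent of Abcg2 reads assigned to transcripts of each annotated start (upstream, middle, downstream and others), as stacked bars for each library from 0 to 100. The downstream start takes at least 85.6% in every TEC library and falls to 59.3% in PMN sham RIPC 3.

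After IRI, none of the 8 members was called in PMNs (edgeR; 0.416% of 25002 genes were called and 11.8% had an unadjusted p under 0.05). Slc22a6 had 10.1 and 5.56 normalized counts in IRI control and 9.75, 10.9 and 37.4 in IRI RIPC, so that 4 of 5 IRI libraries lay below all sham libraries (log2 fold change -3.81, SE 0.78, edgeR adjusted p = 0.112). Slc22a2 had 15.4 and 5.99 in IRI control and 0, 0.356 and 0.0820 in IRI RIPC, against 3.58 to 121 after sham surgery (log2 fold change -4.91, SE 1.39, edgeR adjusted p = 0.257). Abcc4 was near the limit of detection: PMN sham libraries had 51, 6, 0, 0 and 1 reads and IRI libraries 8 to 310 (log2 fold change 4.27, SE 1.71, edgeR adjusted p = 0.413), and its fitted value depends on the prior count. DESeq2 called these 3 genes in the same comparison (Wald test, adjusted p = 9.44e-05 for Slc22a6, 4.08e-04 for Slc22a2 and 0.0102 for Abcc4). The share of all tested genes that the Wald test called in this comparison is not given here, so that the 3 calls cannot be set against it.

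The other members had log2 fold changes of -2.53 for Slc22a8, -1.89 for Slc22a12, -0.53 for Slc47a1, -2.72 for Abcc2 and -0.63 for Abcg2 in PMNs (edgeR adjusted p 0.475, 0.542, 0.966, 0.451 and 0.656). Without sham control 2, Slc22a8 turned to 3.02 and Slc47a1 to 1.11, and without sham RIPC 3 Slc47a1 turned to 1.20. Abcg2 had the smallest SE of the members in PMNs (0.54), with 28.9 to 114 normalized counts after sham surgery and 24.6 to 63.2 after IRI. The PMN proximal tubule markers summed to 567 to 4585 after sham surgery and 326 to 557 after IRI, with all 12 fitted values below 0 (median -2.40). Macrophage markers summed to 2844 to 9330 after sham surgery and 807 to 1863 after IRI, without overlap, with all 7 fitted values below 0 (median -2.39). Distal tubule and collecting duct markers had 8 of 9 below 0 (median -2.44). No marker of these lists was called, and their part in these differences was not tested. The test of whether the IRI effect differed between TECs and PMNs called none of the 8 members and no gene of 31769 with edgeR (3102 had an unadjusted p under 0.05), and 2395 genes but no member with DESeq2's Wald test.

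With RIPC, no member was called by edgeR in PMNs after sham surgery, where 1 of 25002 genes was (0.004%), or after IRI, where none was (680 genes had an unadjusted p under 0.05), and no member or gene was called for the difference between both effects (1434 with an unadjusted p under 0.05). DESeq2's Wald test called 813, 429 and 669 genes in these comparisons. Abcc2 and Abcc4 did not overlap between the sham groups. Abcc2 had 15.7 and 99.2 normalized counts in control and 5.45, 10.6 and 1.30 in RIPC (log2 fold change -3.33, SE 1.96), and Abcc4 51 and 6 reads in control and 0, 0 and 1 in RIPC (both with edgeR adjusted p = 0.705). Groups without overlap in this direction made up 8.24% of all tested genes. After IRI, Slc22a2 did not overlap, with 15.4 and 5.99 normalized counts in control against 0, 0.356 and 0.0820 in RIPC, 0 to 8 reads (log2 fold change -6.21, SE 1.87, edgeR adjusted p = 0.920, unadjusted p = 0.00888). DESeq2's Wald test gave it an adjusted p of 0.0107, and 10.1% of all tested genes had no overlap in this direction. The ranges of Slc22a6, Slc22a8, Slc22a12, Slc47a1 and Abcg2 overlapped between RIPC and control PMNs after either surgery.

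Across the 11 TEC libraries, which share the IRI contrast, 7 of the members were positively correlated with each other (0.51 to 0.98). Pearson's r of log2(CPM + 1) was 0.98 for Slc22a8 and Slc22a2, 0.93 for Slc22a6 and Slc22a2 and 0.92 for Slc22a6 and Slc47a1, whereas Abcc4 had values of -0.10 to -0.58 with the other 7. Within the 6 sham libraries, r was 0.73 for Slc22a6 and Slc22a8 and 0.05 for Slc22a6 and Slc47a1, and it was below 0 for Slc22a12 and Abcc2 (-0.79), Slc22a8 and Abcc2 (-0.63), Slc22a8 and Slc47a1 (-0.46), Slc22a12 and Slc47a1 (-0.40) and Slc22a6 and Abcc2 (-0.29). The tested genes most like Slc22a6 were Aldh9a1, an aldehyde dehydrogenase (0.98), Ugt2b38, a glucuronosyltransferase (0.97), and Glyat, which conjugates acyl groups to glycine (0.97). Those most like Slc22a12 were Ech1, Ephx2 and Chmp6 (0.99, 0.98 and 0.97), and those most like Slc47a1 were Acmsd, Gas2 and Nicn1 (0.99, 0.98 and 0.98). Slc22a2 was nearest to Galm, the proximal tubule receptor gene Cubn and Scrn2 (each 0.98), and Slc22a8 to Cryz, Tmbim6 and Slc22a2 (each 0.98). Abcg2 was nearest to Arl6ip1, Thnsl2 and Hacd3 (0.97, 0.95 and 0.95), Abcc2 to C2cd2l, Atxn7l2 and Hexim2 (0.96, 0.94 and 0.93) and Abcc4 to Cnst, Adamts5 and Tmem43 (0.95, 0.91 and 0.91). With 11 libraries and the surgery contrast in all of them, these values describe the libraries and were not tested.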

How the data were processed

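RNA was measured in 11 TEC and 10 PMN libraries by single-end RNA-Seq of poly(A) RNA. According to the submitters' processing notes, the authors used Trim Galore 0.6.4, Salmon 1.0.0, DESeq2 and mm10. The deposited values are the authors' estimated counts (NumReads) and TPM for 140748 transcripts, in 2 files for each library, whose difference is not given in the sources used here. Over 141 gene and library pairs with 100 reads or more, both files differed by a median absolute log2 ratio of 0.00887 and at most 0.155. With files this close, their reads cannot be assumed to be separate counts. Whether both files hold the same reads was not tested. If they do, the added reads and depths count those reads in both files.

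Estimated counts were added over the transcripts of a gene (Gencode M21, 139864 transcripts matched; 0.139% to 0.255% of reads lay on the others) and over both files, and rounded. The authors' TPM values were used to compare levels between genes. edgeR 4.0.16 (R 4.3.3, TMM scaling, filterByExpr, quasi-likelihood test) was fitted to the TEC libraries, the PMN libraries or all libraries, with adjusted p under 0.05 over all tested genes. It was tested on simulated data. Its quasi-likelihood test gives no SE. The SE values shown are the absolute log2 fold change divided by the square root of the test's F statistic. Library sizes of these fits were summed over autosomal genes, without sex-chromosome and mitochondrial genes. Alternatives were DESeq2 1.42.0 size factors and Wald test, apeglm 1.24.0, other filters, transcript lengths, a replicate block, single files, single arms and each library left out. Permutation tests used SciPy 1.17.1.

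Groups came from the labels. Nothing in the labels says which libraries share an animal, so that p-values measure the spread between these samples. The members, related lists and markers were chosen with earlier results of these data known. All 8 members were named. From each related list up to 3 called genes in each direction were named, or, where none was called, the 2 most abundant in TECs; some genes these rules name are not reported here. For each member the 3 genes with the highest Pearson r were named. Limits of zero counts cover counting error only and take the reads of both files as separate counts. They are too low if both files hold the same reads.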

Additional observations from a re-analysis of the deposited data

Results flagged for a closer look

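In 12 of 32 sets of 5 or 6 libraries, 1 library stood apart from the others by Dixon's criterion. Chance passes it in about 1 of 20 sets only where values are independent and normally distributed. These sets held untransformed counts and shared libraries, and each flagged library was the highest of its set. The rate is therefore no reference for the 12 sets. Values are normalized counts. Among TECs after IRI, IRI RIPC 3 stood above the others for Slc22a6 (199), Slc47a1 (263) and Abcg2 (493). It also held the highest proximal tubule marker sum after IRI (8857), and the part of these markers in its transporter levels was not tested. Among sham TECs, sham control 2 stood apart for Slc22a2 (264).

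Among sham PMNs, sham control 2 stood above the others for Slc22a6 (427), Slc22a8 (356), Slc22a2 (121) and Abcc2 (99.2). Its proximal tubule markers summed to 4585 and its distal tubule and collecting duct markers to 5262, the highest among PMNs, and their part was not tested. Sham control 1 stood apart for Abcc4 (2.07) and sham RIPC 1 for Abcg2 (114). Among PMNs after IRI, IRI RIPC 3 stood apart for Slc22a6 (37.4) and IRI control 2 for Abcc4 (12.1).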

How the results depend on the processing

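After IRI in TECs, 3 of 8 members were called with the settings used, 6 with no filter on low counts, 0 in either arm alone, 1 to 5 with 1 library left out, and 5 without TEC sham control 1 and IRI RIPC 3 (chosen after seeing the data). In PMNs after IRI, 0 members were called by edgeR, 2 with no filter, 1 with at least 10 counts in every library, 3 with DESeq2's Wald test or apeglm, and 0 to 1 with 1 library left out (1 without sham control 1, Slc22a6, adjusted p = 0.0120). The shares of all genes that these other settings called in PMNs after IRI are not given here. For RIPC in PMNs after IRI, DESeq2's Wald test called 1 member. Between TECs and PMNs, 7 were called, 2 of 2 tested with at least 10 counts in every library, 0 in the sham control or IRI control groups alone, and 6 to 8 with 1 library left out. Slc22a12 was called too with no filter (edgeR adjusted p = 6.60e-04), file 1 alone (0.0363) or transcript lengths (0.0276). DESeq2's Wald test (adjusted p = 0.00631) and apeglm called it as well. Slc22a2 was not called with the replicate block (edgeR adjusted p = 0.0586) or without TEC sham control 1 and IRI RIPC 3 (0.0993). The shares of all genes called between TECs and PMNs by these settings are not given here. Over all genes, the IRI comparison in TECs called 363 genes, 1289 with no filter, 2234 with the Wald test and 2507 with apeglm, and the RIPC comparison in sham TECs called 0 with edgeR, 425 with the Wald test and 50 with apeglm.

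Directions turned only for values that were not called. For Abcc4 in TECs after IRI, the log2 fold change was 0.0386 with DESeq2 size factors, 0.0384 with the Wald test, 0.302 with transcript lengths, 0.0168 with apeglm, 0.67 in the control arm, 1.96 without TEC sham control 1 and IRI RIPC 3, and -0.65 to 1.65 with 1 library left out. DESeq2 size factors moved the median of all genes in that comparison from 0.15 to 0.28. For RIPC in sham TECs, Abcc4 had -0.18 with transcript lengths, and with 1 library left out Slc47a1 ranged from -0.58 to 0.12, Abcc4 from -0.46 to 3.57 and Abcg2 from -0.55 to 0.0827. For RIPC in TECs after IRI, the ranges were -0.37 to 1.52 for Slc22a6, -0.64 to 1.34 for Slc22a8, -1.10 to 3.26 for Slc22a2, -0.27 to 0.83 for Slc22a12, -0.26 to 1.17 for Abcc2 and -0.45 to 1.08 for Abcg2. Without TEC sham control 1 and IRI RIPC 3, these were -0.34 for Slc22a6, -0.59 for Slc22a8, -1.03 for Slc22a2, -0.27 for Abcc2 and -0.45 for Abcg2, and Abcc2 had -0.52 with transcript lengths. In PMNs after IRI, Slc22a8 ranged from -3.25 to 3.02 and Slc47a1 from -1.55 to 1.20 with 1 library left out, and Slc47a1 had 0.0477 in the RIPC arm. The causes were not tested.

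Same-number libraries of different groups within a cell type were compared: 1 of 15 correlations in TECs and 0 of 13 in PMNs were above 0.1. PMN and TEC libraries with the same number within a group were not compared. Whether replicate numbers pair the samples is therefore not settled. With the replicate block, 3 members and 404 genes were called after IRI in TECs, 0 members and 23 genes after IRI in PMNs, where Slc47a1 had 0.27, and 6 members between TECs and PMNs. Abcc4 had 0 to 310 reads in PMN libraries, so that its counting error is large there.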
